A study of Rattus norvegicus with 5 samples.

Results

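The comparison described here set the small intestine of rats fed 5% less than their recorded intake against that of rats fed the full amount, the mildest calorie restriction (CR) of the series. A gene probe (an Affymetrix probe set) was a member when it was no array control and its deposited signal was at least 50 on both the 5% CR and the control array. Of 15866 such gene probes, 7354 (46.4%) were kept, and 6419 of those had a single gene symbol, which gave 5815 genes. A further 7803 were under 50 on both arrays, 702 were between 50 and 100 on 1 array and under 50 on the other, and 7 were at 100 or more on 1 array and under 50 on the other. At the edge of the minimum, *Bmal1* (5% CR signal 50.1) and *Hmox1* (50.4) were just inside, while *Abcg5* (35.5 on the control and 65.6 on the 5% CR array) and *Nfil3* (85.6 and 29.9) were outside.

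All animals were male Wistar rats, bought at 5 weeks of age, housed singly on a purified powdered diet, and studied from 6 weeks of age. Groups of 5 rats received the full intake (control) or 5, 10, 20 or 30% less for 1 month, and were killed after a 16 h fast. The RNA of the 5 rats of a level was pooled and hybridised to 1 array, so the series held 5 arrays, and the 5% CR and control groups were 1 array each with no replicate. No test of the 5% level against the spread between rats was therefore possible, every ratio below is between 2 pools, and a gene is called higher or lower here only by size, at a log2 ratio of 0.5 (1.41-fold).

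The small intestine is lined by absorptive enterocytes whose brush border carries the enzymes and transporters for sugars, peptides and fats, with goblet, Paneth and enteroendocrine cells among them and dividing cells in the crypts. Its cells also run a circadian clock, in which *Bmal1* with *Clock* drives the *Per*, *Cry*, Rev-erb (*Nr1d1*, *Nr1d2*) and *Dbp* genes, and the products of the *Per*, *Cry* and Rev-erb genes in turn repress that arm. Meal timing is known to set such clocks in peripheral tissues. As RNA of whole tissue was measured, fewer cells of a type and less RNA per cell cannot be told apart in any value below. The labelled tissue carried markers of its proximal length: 11 of 11 proximal small intestine genes on the array were kept, with a summed signal between 11010 and 13499 on the 5 arrays, and 1 of 7 distal genes was.

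The 5% CR and control arrays differed little in most gene probes. The log2 ratio had a median of 0.00 and an SD of 0.28 over the 7354 kept, 67.3% lay within 0.25 of 0, and the lowest and highest values were -2.53 and 1.64. Past 0.5, 325 gene probes (4.42%) were higher at 5% CR and 229 (3.11%) were lower. Past 1, which is 2-fold, the counts were 11 (0.15%) and 13 (0.177%). With 1 gene probe a gene, 253 of 5815 genes (4.35%) were higher and 160 (2.75%) lower, and the median was 0.01. The SD shrank with signal, from 0.31 at a mean signal of 50 to 100 down to 0.19 at 800 and over, and the share past 0.5 from 11.3% to 0.935%.

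**Figure D1:**
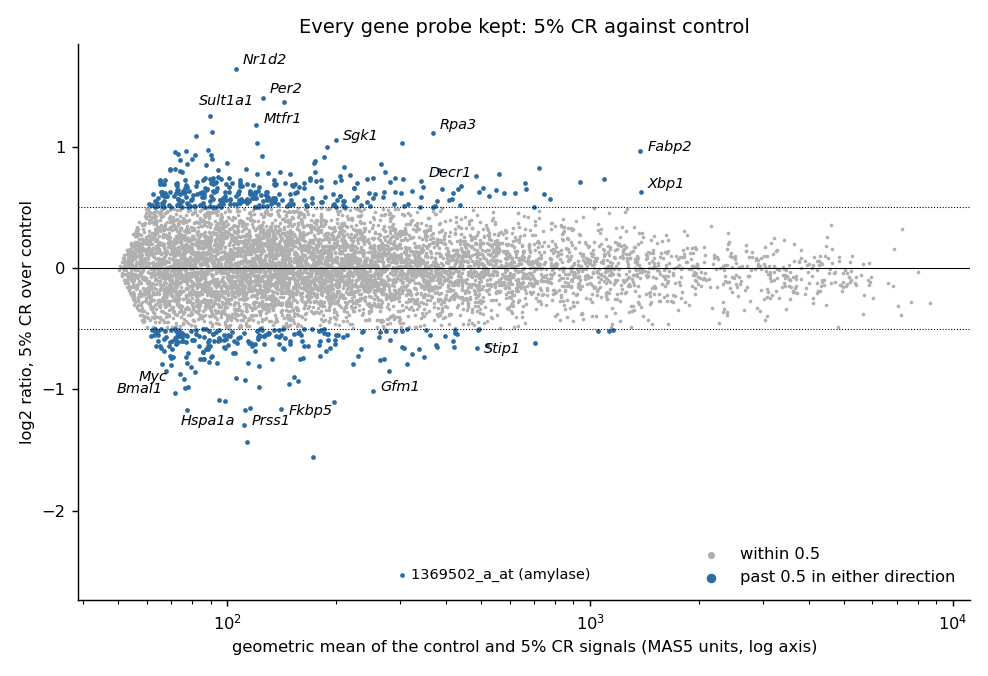
Log2 ratio of 5% CR over control (vertical axis) against the geometric mean of both signals in MAS5 units (horizontal log axis), each point being 1 of the 7354 gene probes kept, with dotted lines at log2 ratios of 0.5 and -0.5. Points past 0.5 (blue) lie mostly at low signals, and *Nr1d2* at the top and the amylase gene probe at the bottom stand farthest from 0.

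Without replicates, several measures of error were set beside these ratios. In 537 genes with at least 2 gene probes kept, the ratios of the brightest 2 differed with an SD of 0.36. Of 19 such genes higher by their brightest gene probe, 5 were also higher by the second, and of 15 lower, 0 were. limma, with the 10, 20 and 30% CR arrays taken as a single group for the spread and the control and 5% CR arrays assumed to vary like them, gave a median SE of 0.28 per ratio. It called no gene probe after adjustment for multiple testing. With 2 residual degrees of freedom this fit has little power at ratios of the size seen here, so the lack of calls does not show that no gene differed. The ratios of single genes below are descriptions of these 2 pools.

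The clock held the highest ratio of all. *Nr1d2* (Rev-erb beta, a repressor of *Bmal1*) had signals of 59.8 on the control and 186.3, 170.7, 138.4 and 113 on the 5, 10, 20 and 30% CR arrays. Its log2 ratio at 5% CR was 1.64 ± 0.33 (SE from limma, 1 array a group), or 3.12-fold, and its 5% value was the highest of the 5 arrays. *Per2*, a repressor of the *Bmal1* arm, had 77, 203.6, 190.5, 231.6 and 204.6 in the same order, with a ratio of 1.40 ± 0.26. All restricted arrays thus stood above the control for both genes. *Usp2*, a clock-controlled deubiquitinase, had 66.4, 110.1, 129.4, 200.8 and 111.9, a ratio of 0.73. *Dbp*, the D-box binding output factor, was under the minimum on the control array at 21.9 and at 136.2 on the 5% CR array, at least 2.72-fold higher against a signal of 50, and at 158.1, 97.8 and 48.6 on the other arrays.

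In the opposite arm, *Bmal1* had 102.5 on the control and 50.1, 47, 41.9 and 86.2 on the 5, 10, 20 and 30% CR arrays, a 5% ratio of -1.03. *Clock*, its partner, had 123.3, 91.6, 81.1, 86.3 and 118.8, a ratio of -0.43. *Nfil3*, the repressor that competes with *Dbp* at D-boxes, was at 85.6 on the control and 29.9 on the 5% CR array. For these 3 genes the 30% CR array lay nearer to the control than the 5% CR array did.

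Not every clock gene differed. *Per1* (64.6 and 62.6), *Nr1d1* (59.1 and 66.3) and *Bhlhe40* (141.8 and 124.7) differed by log2 ratios of -0.05, 0.17 and -0.19 between the control and 5% CR arrays. Of the 12 genes of the Per, Rev-erb and output list on the array, 6 were kept, 3 of them were higher and 0 lower, and their median was 0.45 beside 0.01 over all genes. Over all genes 4.35% were higher and 2.75% lower. Both kept members of the *Bmal1* list were below 0, with a median of -0.73. With a minimum signal of 100 the first list held only *Bhlhe40* (-0.19), the other 5 kept members being under 100 on the control array.

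The promoters of *Per2* and *Bmal1* are shown because these genes lay on opposite sides of the control, and because they carried the only D-box and the only RORE core found among 17 clock gene promoters searched. The windows are the 250 bases before the RefSeq start (assembly GRCr8), 5′ to 3′ on the gene's strand. Capitals mark the D-box TTANNTAA in *Per2* and the RORE core TAGGTCA, the kind of site that Rev-erb proteins bind, in *Bmal1*.
Per2, chr9:99496994-99497243, minus strand: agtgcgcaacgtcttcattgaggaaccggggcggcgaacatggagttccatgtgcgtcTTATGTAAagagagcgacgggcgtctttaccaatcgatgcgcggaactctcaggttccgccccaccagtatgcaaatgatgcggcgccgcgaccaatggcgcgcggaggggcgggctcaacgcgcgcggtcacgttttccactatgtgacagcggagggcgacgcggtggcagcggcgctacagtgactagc
Bmal1, chr1:176766078-176766327, plus strand: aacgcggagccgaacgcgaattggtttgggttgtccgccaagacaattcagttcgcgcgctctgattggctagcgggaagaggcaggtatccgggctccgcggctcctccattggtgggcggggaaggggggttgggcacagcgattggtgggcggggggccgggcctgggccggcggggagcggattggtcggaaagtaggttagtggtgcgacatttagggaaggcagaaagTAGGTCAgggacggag
The matches began 192 bases before the start in *Per2* and 16 bases before it in *Bmal1*. Both strands were searched, and of 33469 RefSeq promoters of this length 5.32% held the D-box and 2.26% the RORE core. The E-box CACGTG, held by 5.59% of all promoters, was found in 4 of the 17, and in neither of the promoters shown. *Nr1d2* and *Dbp* held none of these letters in their windows.

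Most genes of a heat shock list, mostly cytosolic, had a ratio below 0 at 5% CR, and a few passed the threshold. These genes code for chaperones that refold proteins and are driven by heat shock factor. Of 15 on the array all 15 were kept, 13 had a ratio below 0, 4 were lower past 0.5 and 0 higher, and the median was -0.34. Over all genes 2.75% were lower and 4.35% higher, with a median of 0.01. Gene probes whose annotation names *Hsp90aa1* and a pseudogene of it were not counted here. Their ratios, given further below, were close to 0. *Hspa1a*, the inducible Hsp70, had 168.4 on the control and 74.7, 88, 84 and 86.9 on the 5, 10, 20 and 30% CR arrays, a ratio of -1.17 ± 0.29 or 2.25-fold lower. A second gene probe, 1368247_at, whose annotation names both *Hspa1a* and *Hspa1b*, had 144, 67.3, 61.5, 76.4 and 71.5, a ratio of -1.10. The control array alone was high for this inducible chaperone. *Stip1*, which links Hsp70 to Hsp90, had 611.3, 387.5, 440.4, 604.7 and 401.8, a ratio of -0.66, so that the 20% CR array stood with the control. *Cryab*, a small heat shock protein, had 128.7, 84.6, 141.8, 120.5 and 105.2 (-0.61), and *Hsph1* (Hsp110) had 511.7, 353.8, 355.1, 393.8 and 382.9 (-0.53). *Dnajb1* (-0.45), *Dnaja1* (-0.38), *Hspb1* (-0.35) and *Hsp90ab1* (-0.34) were lower by less than the threshold. The mitochondrial chaperonin *Hspd1* (2922.4 and 2961.8), which the list holds beside the cytosolic genes, had a ratio of 0.02.

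The promoter of *Hsph1* and that of *Hspb1* are shown as examples of the heat shock element, an inverted repeat written here as GAANNTTC, which 8 of 14 heat shock promoters searched held beside 7.23% of all promoters. Capitals mark that element in both and an E-box in *Hsph1*.
Hsph1, GRCr8 chr12:10427118-10427367, plus strand: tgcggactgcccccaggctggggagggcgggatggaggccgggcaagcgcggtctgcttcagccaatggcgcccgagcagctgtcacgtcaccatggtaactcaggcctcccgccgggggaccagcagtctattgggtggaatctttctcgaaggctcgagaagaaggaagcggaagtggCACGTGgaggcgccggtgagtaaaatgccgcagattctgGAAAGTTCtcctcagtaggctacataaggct
Hspb1, GRCr8 chr12:26432302-26432551, minus strand: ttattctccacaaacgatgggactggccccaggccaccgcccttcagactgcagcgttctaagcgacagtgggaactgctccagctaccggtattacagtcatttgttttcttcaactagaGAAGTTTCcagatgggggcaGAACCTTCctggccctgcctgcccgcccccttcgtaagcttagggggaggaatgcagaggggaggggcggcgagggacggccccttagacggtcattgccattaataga
The element began 31 bases before the start in *Hsph1* and 129 and 109 bases before it in *Hspb1*. In *Hspa1a* the window held no match. Among the 8 promoters with the element, the windows of *Hspe1* and *Hspd1* overlap on opposite strands. Their matches are the same stretch of bases, counted in both.

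Other stress genes lay on both sides of the control. In the endoplasmic reticulum folding list 14 of 20 had a ratio above 0, 2 were higher and 0 lower, with a median of 0.10. The shares over all genes were 4.35% higher and 2.75% lower. *Xbp1*, the transcription factor of the unfolded protein response, had 1107.8 on the control, 1715.7 on the 5% CR array and 1186.2, 1351.9 and 1690.8 on the 10, 20 and 30% CR arrays (0.63). *Hspa5* (BiP), the main chaperone of that compartment, went the other way, with 1670.3 and 1243.8 on the control and 5% CR arrays (-0.43). *Hmox1*, the haem-degrading oxygenase, had 90.8, 50.4, 54.7, 49 and 37.2 (-0.85). *Fkbp5*, a co-chaperone of the glucocorticoid receptor and a target of it, had 210.5, 93.9, 183, 189.1 and 257.8 (-1.16), while *Sgk1*, another glucocorticoid-induced gene, had 137.7, 287.1, 285.9, 521.8 and 307.4 (1.06). Other glucocorticoid-responsive genes such as *Tsc22d3* (219.1 and 201.8) and *Ddit4* (124.2 and 124.5) had ratios of -0.12 and 0.00.

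Growth genes of the immediate early list were split. *Myc*, a driver of growth and division, had 107.9 on the control and 54.3, 86.1, 75.1 and 62.4 on the 5, 10, 20 and 30% CR arrays (-0.99), and *Klf6* had 204, 130.4, 133.6, 175.1 and 131.6 (-0.65). The second gene probe of *Klf6* gave -0.22. *Egr1* had 113.6 and 79.5 on the control and 5% CR arrays (-0.51), whereas *Fos* (103.8 and 127.7) had a ratio of 0.30, and 8 of the 13 kept were above 0. Among genes of DNA replication and the cell cycle 19 of 30 were above 0, with a median of 0.16. Higher were 2 (*Mcm7* of the replicative helicase and the mitotic kinase *Aurkb*), and 1 was lower, beside 4.35% and 2.75% of all genes. The lower gene was *Cdkn2b*, which codes for an inhibitor of the G1 kinases, with 116.5, 51.8, 53.9, 86 and 83.4 (-1.17). *Cdkn1a* (p21), another inhibitor, had ratios of -0.41 and -0.98 by its 2 gene probes.

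On the absorptive surface, several enzymes and transporters were higher at 5% CR. *Fabp2*, the intestinal fatty acid binding protein, had 983.8 on the control and 1918.3, 1805.8, 2382.9 and 1969.2 on the 5, 10, 20 and 30% CR arrays, a ratio of 0.96 ± 0.23 and the highest among gene probes with a mean signal of 800 and over. Its control value lay below all 4 restricted arrays. Of 11 brush border peptidases 9 were above 0, 4 were higher and 0 lower, and the median was 0.34. Of all genes 4.35% were higher and 2.75% lower. *Enpep* (aminopeptidase A) had 371.1, 629.5, 393.2, 748.4 and 548.5 (0.76), and *Mme* (neprilysin) had 440.5, 686.9, 528.4, 871.7 and 487.7 (0.64). By the brightest gene probe *Anpep* (aminopeptidase N) was the largest exception, with 1005.2 and 808.1 on the control and 5% CR arrays (-0.31). Second gene probes of peptidase genes went both ways. That of *Dpp4* gave -0.65 where the brightest gave 0.15, and that of *Ace* gave 0.97 where the brightest gave 0.31. The 5 and 20% CR arrays were the 2 highest for *Enpep* and *Mme*, with the 10% CR array nearer to the control.

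The sugar transporter *Slc5a1* (SGLT1) shared that order, with 157, 280.2, 181.2, 287.2 and 172.1 (0.84), as did the peptide transporter *Slc15a1* (PepT1), with 130.4, 218, 139.2, 260.3 and 166.9 (0.74). *Slc6a20a*, an imino acid transporter, had 56.2, 119.8, 118.4, 126.3 and 112.4 (1.09), but its second gene probe gave 0.32. The lists as wholes were close to all genes: the median was 0.05 for amino acid and peptide transporters (2 of 11 higher, 0 lower) and -0.14 for sugar digestion and transport (1 of 8 higher, 1 lower). For fat absorption and chylomicron assembly it was 0.07, with 12 of 18 above 0, 3 higher (*Fabp2*, *Cd36* at 0.78 and *Apoa4* at 0.71) and 0 lower. Of all genes 4.35% were higher and 2.75% lower. *Apoa4*, an apolipoprotein of chylomicrons, had 733.4, 1200.1, 986.9, 1623.1 and 773.6. *Apob* (698.4 and 680) and *Dgat1* (1623.4 and 1669.2), which serve the same particles, had ratios of -0.04 and 0.04.

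Some surface and ion-handling genes were lower. The ion and fluid transport list as a whole was close to all genes, with 10 of 19 above 0 and a median of 0.01. In it 1 gene was higher and 3 were lower, beside 4.35% and 2.75% of all genes. The higher gene was *Car4*, with 70.3 and 110.7 on the control and 5% CR arrays (0.66). *Clca4*, a chloride channel regulator, had 871 on the control and 567.1, 328, 462.2 and 400.1 on the 5, 10, 20 and 30% CR arrays (-0.62). *Akp3*, an intestinal alkaline phosphatase, had 587.8, 415.1, 244.1, 412.2 and 147.4 (-0.50). For both genes the 5% CR array was the next highest after the control. *Slc9a3* (NHE3), the apical sodium-proton exchanger, had 317, 220.2, 195.4, 213.9 and 284.6 (-0.53). *Espn*, an actin bundler of microvilli, had 411.2, 236.9, 213, 407.5 and 221.4 (-0.80). *Nmu*, the gut peptide neuromedin U, had 228.4, 157, 170.8, 180.7 and 113 (-0.54), the only gut hormone gene of 13 kept past 0.5 in either direction. Of all gene probes kept 7.53% were past 0.5 in either direction, and 1 in a list of 13 is near that share.

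Lipid-handling enzymes showed small shifts. Of 13 fatty acid synthesis genes, 12 were below 0 with a median of -0.22, but only *Mlxipl* (ChREBP, the carbohydrate-responsive factor), with 241.6 and 164.9 on the control and 5% CR arrays (-0.55), passed the threshold. *Fasn* (244.9 and 197.5), *Acly* (342 and 282) and *Elovl1* (335.4 and 261.7) had ratios of -0.31, -0.28 and -0.36. By its second gene probe *Fasn* had -0.11. Past 0.25, 5 of the 13 (38.5%) were lower and 0 higher, where 14.9% of all genes were lower and 16.9% higher. In fatty acid oxidation 15 of 24 were above 0 with a median of 0.07. *Decr1*, an auxiliary enzyme of beta-oxidation, had 267, 440.3, 398.6, 403.1 and 415.4 (0.72), *Acadm* a ratio of 0.47 and *Cpt1a*, the gate of mitochondrial fatty acid entry, 0.38. No gene of cholesterol synthesis (16 kept, median -0.09) passed 0.5.

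Among xenobiotic-metabolising genes, *Sult1a1*, a phenol sulfotransferase, had 58.1 on the control and 138.4, 129.3, 128.8 and 186.7 on the 5, 10, 20 and 30% CR arrays (1.25 ± 0.34, 2.38-fold). Gene probe 1371076_at, whose annotation names both *Cyp2b1* and *Cyp2b2*, had 89, 229.9, 255.3, 340.8 and 326.8 (1.37). All restricted arrays stood above the control in both. *Cyp3a18* (0.74), *Cyp3a9* (0.62), *Gsta1* (0.63) and the epoxide hydrolase *Ephx1* (0.56) were higher as well. The families did not follow as wholes: the medians were 0.11 for cytochrome P450 genes (9 kept), 0.07 for glutathione transferases (15) and 0.16 for other conjugating and reducing enzymes (15), with *Cyp4f6* (-0.56) lower.

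**Figure D2:**
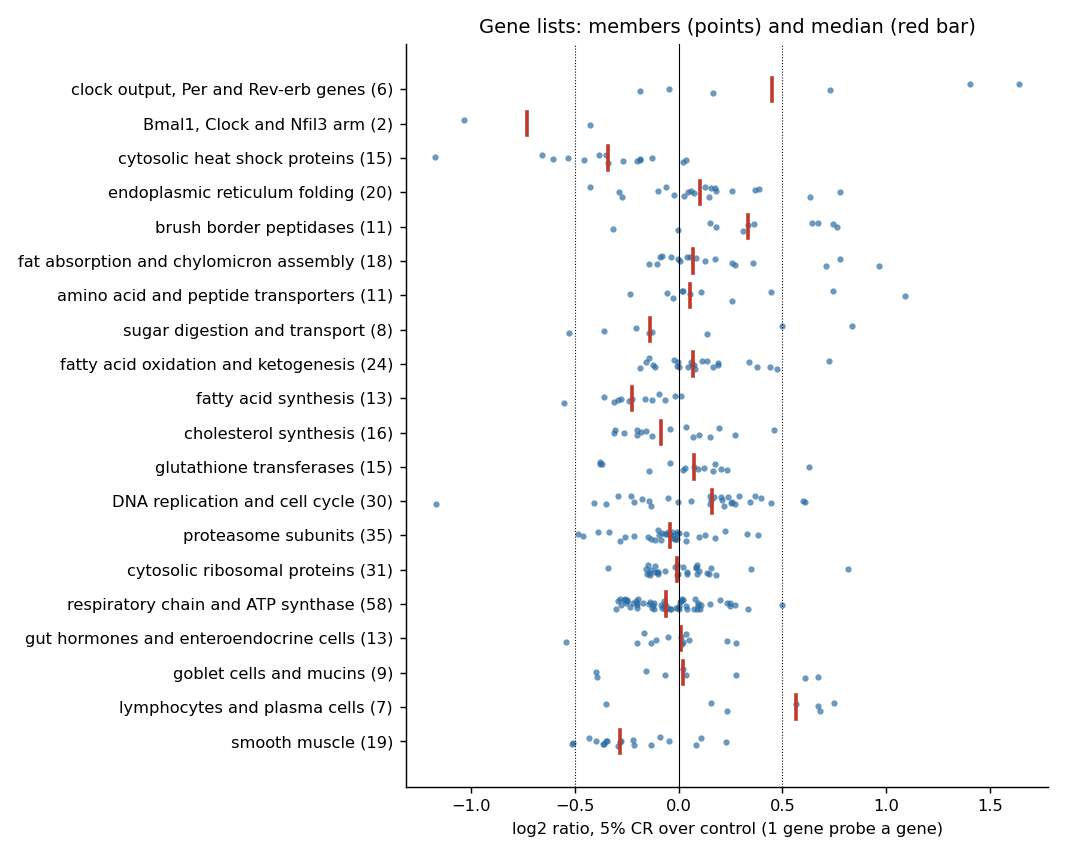
Log2 ratio of 5% CR over control (horizontal axis) for the kept members of 20 gene lists, 1 gene probe a gene, with the number of members in brackets, the median as a red bar and dotted lines at 0.5 and -0.5. The heat shock and smooth muscle lists lie mostly left of 0 and the brush border peptidases mostly right of it, while the large lists (proteasome, ribosome, respiratory chain) sit close to 0.

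The large housekeeping lists had medians close to that of all genes. The median was -0.04 for 35 proteasome subunits, -0.01 for 31 ribosomal proteins, 0.02 for 36 translation factors and synthetases, and -0.06 for 58 genes of the respiratory chain and ATP synthase. In these lists 0 or 1 member passed 0.5 in either direction, where 4.35% of all genes were higher and 2.75% lower. Below 0 were 26 of 35 proteasome and 35 of 58 respiratory chain genes. For ribosomal proteins it was 17 of 31, and for translation factors and synthetases 16 of 36. *Psma7*, an alpha ring subunit of the proteasome, had 1927 and 1402.5 on the control and 5% CR arrays (-0.46). The ribosomal protein gene *Rpl39* (52.5 and 92.5) was higher by 0.82 on the log2 scale, and lay at 27.2, 46.5 and 20.8 on the other arrays.

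Markers of the other cells of the gut wall differed by cell type. Of 19 smooth muscle genes, 16 were below 0, 2 were lower (*Des*, desmin, and *Synpo2*) and 0 higher, and the median was -0.28. Of all genes 2.75% were lower and 4.35% higher. The second gene probe of *Synpo2* gave -0.04. The summed signal of the 19 genes was 21797 on the control and 17569, 23480, 19519 and 17920 on the 5, 10, 20 and 30% CR arrays. The 5% CR array was thus lowest and the 10% CR array highest. *Actg2*, the enteric smooth muscle actin, had 2698.5, 2102.3, 2976.9, 3056.5 and 2217.4 (-0.36), and *Des* had 1384.1, 971, 1559.6, 897.4 and 922 (-0.51). *Cryab* and *Hspb1* of the heat shock list are also abundant in muscle. *Hspb1*, like *Cryab*, was highest on the 10% CR array (344.8 on the control, then 270.8, 374.8, 323.9 and 212.1), and the part of muscle in those ratios was not tested. *Cald1* (caldesmon), another muscle gene, had a ratio of -1.10 by gene probe 1368824_at and 0.08 by its brightest.

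Of 20 lymphocyte and plasma cell genes on the array, 7 were kept, 4 were higher and 0 lower, with a median of 0.56. Of all genes 4.35% were higher and 2.75% lower. Over all 20, most of them under the minimum, the median was 0.15, and 7 of the 20 were below the control at 5% CR. The 4 higher genes were *Cxcr4* (72.7 and 122.2 on the control and 5% CR arrays, 0.75), *Ptprc* (CD45, 57.4 and 91.9, 0.68), *Rac2* (274.8 and 437.9, 0.67) and *Lck* (107.7 and 159.3, 0.56). The T cell genes *Cd3e*, *Cd4* and *Cd8a* were under 50 on both arrays, and the summed signal of all 20 was 2362 on the control and 2784, 2807, 2788 and 2703 on the others. The control array was therefore the lowest. Of 10 Paneth cell and antimicrobial genes and 4 stem cell genes kept, only *Axin2*, a Wnt target, with 116.8 and 70.7 (-0.72), passed 0.5. That is near the 7.53% of all gene probes kept that were past 0.5. Among 9 goblet cell and mucin genes *Muc4* (0.67) and *Muc3* (0.61) were higher and 0 lower, beside 4.35% and 2.75% of all genes. The median was 0.02. *Muc2*, the secreted goblet cell mucin (2264.5 and 2032.2), had a ratio of -0.16, and *Fcgbp* (3518.5 and 2672.9) had -0.40.

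The lowest ratio of all belonged to gene probe 1369502_a_at, whose annotation names the amylase genes *Amy1* and *Amy2a3*. Its signals were 730.8 on the control, 126.5 on the 5% CR array and 0.9, 0.4 and 1 on the 10, 20 and 30% CR arrays, a 5% ratio of -2.53. *Prss1*, coding for a trypsinogen, had 174.3, 71.2, 2.4, 24.9 and 18.5 (-1.29), and *Cela2a*, a pancreatic elastase, had 119.2, 29.4, 9.6, 15 and 6.4, at least 2.38-fold lower at 5% CR against a signal of 50. These are digestive enzymes made by acinar cells of the exocrine pancreas. Of 17 such genes on the array, 14 were highest on the control and 16 were lower at 5% CR than on the control, and their summed signal was 1374 on the control and 756, 638, 672 and 573 on the others. In 10 of the 17 the 5% CR array was above all of the 10, 20 and 30% CR arrays. Only *Prss1*, *Cela1* and *Reg1a* were at 50 or more on both arrays. How much pancreatic RNA in the pools had a part in other ratios was not tested. Without these genes and the amylase gene probes, 325 gene probes were higher and 226 lower past 0.5, and 11 and 11 past 1.

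**Figure D3:**
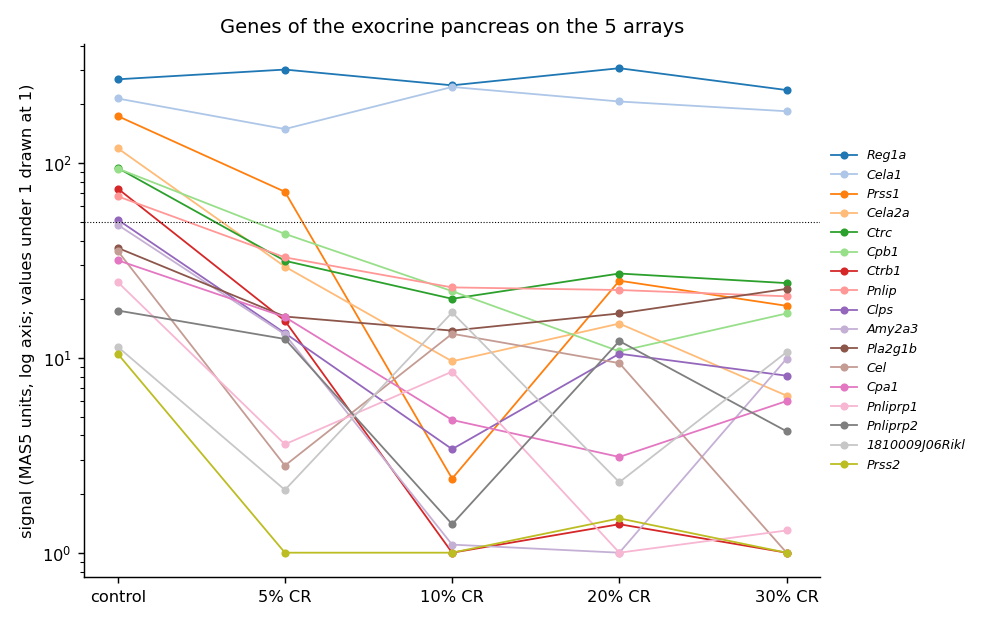
Signal in MAS5 units (log axis, values under 1 drawn at 1) of the 17 exocrine pancreas genes on the control, 5, 10, 20 and 30% CR arrays, 1 line a gene, with a dotted line at the minimum of 50. Most lines are highest on the control array and intermediate on the 5% CR array, while *Reg1a* and *Cela1* stay between 149.5 and 306.8 throughout.

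Some of the largest 5% ratios were not those of a level between the control and the stronger restrictions. *Mtfr1*, a regulator of mitochondrial fission, had 79.7 on the control, 180.7 on the 5% CR array, 80.6 and 97.5 on the 10 and 20% CR arrays and 175.3 on the 30% CR array (1.18). *Rpa3*, a subunit of the single-stranded DNA binding protein RPA, had 249.9, 542, 265.5, 264.2 and 449.2 in the same order (1.12). *Rab9a*, a GTPase of endosome to Golgi transport, had 132.9, 265.6, 142.8, 150.9 and 284 (1.00), and *Ptn*, the growth factor pleiotrophin, had 66.6, 124.3, 66.6, 49.8 and 130 (0.90). In these genes the 5 and 30% CR arrays were high and the 10 and 20% CR arrays lay near the control. *Creld2*, an endoplasmic reticulum protein, had 428.9, 735, 411.1, 390.3 and 535.8 (0.78), the 5% CR array being the highest. *Gfm1*, a mitochondrial translation factor, was low on the 5 and 20% CR arrays instead, with 359.3, 177.8, 291.3, 179.2 and 354.8 (-1.01).

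**Figure D4:**
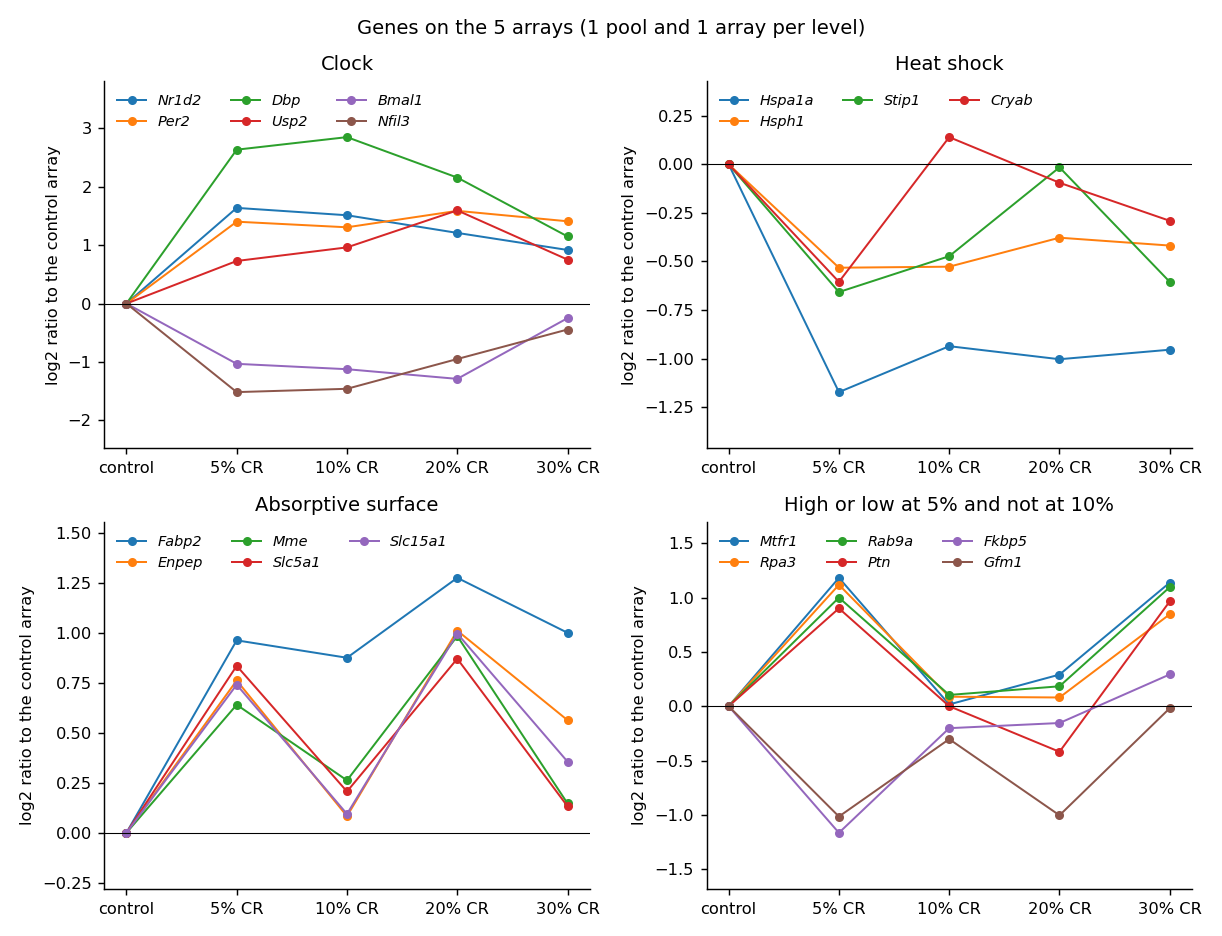
Log2 ratio to the control array (vertical axis) on the control, 5, 10, 20 and 30% CR arrays (1 pool and 1 array each, no error bars) for clock, heat shock and absorptive genes and for genes whose 5% CR value was not shared by the 10% CR array, chosen after their values were seen. The clock lines leave 0 at 5% CR and stay on their side of it, whereas *Mtfr1*, *Rpa3*, *Rab9a* and *Ptn* return to near 0 or below it at 10 and 20% CR.

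The remaining gene probes past a log2 ratio of 1 had varied roles. *Nsmaf*, an adaptor of TNF receptor signalling, had 61.8, 134.2, 112.6, 81.2 and 100.1 (1.12), *Lrrc58* had 84.6, 172.6, 161.6, 154.1 and 298.1 (1.03), and 1386901_at, whose annotation names *Cd36* and *Cd36l1*, had 212.7, 434.1, 350.8, 342.3 and 436.1 (1.03). On the lower side were *Ift172* of intraflagellar transport (172, 77.4, 91.1, 118 and 86.3, -1.15) and *Marf1* (139, 65.2, 119.3, 70.3 and 64.9, -1.09). Gene probe 1386944_a_at, annotated with 3 genes, had 186 and 68.9 on the control and 5% CR arrays (-1.43), and 1373497_at, with no gene name, had 294.8, 100.3, 245.6, 283.4 and 149.3 (-1.56).

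Below a log2 ratio of 1, the genes highest at 5% CR included immune genes beside regulators of translation and signalling. *Cxcl13*, a chemoattractant of B cells, had 58.8 on the control and 112.5, 127.4, 71.6 and 171 on the 5, 10, 20 and 30% CR arrays (0.94), and *Ptprcap*, a partner of CD45, had 63.1, 123.7, 96.8, 66.4 and 90.2 (0.97). *Eif4ebp3*, an inhibitor of translation initiation, had 90.6, 171.5, 160.8, 242.7 and 210.3 (0.92). *Zbtb4*, *Cdc26*, *Thoc5*, *Gucy1b1* and *Pmp22* completed the 20 highest, with ratios from 0.89 to 0.96. The second gene probe of *Cdc26* gave 0.10. Among the 20 lowest were *Tap1* of peptide loading onto MHC class I (149.4, 86.7, 101.7, 79.5 and 112.9, -0.79), the matrix protein *Tnc* (208.3, 111.8, 168.8, 128.6 and 118.9, -0.90) and the synaptic vesicle protein *Syp* (109.7, 60.7, 81.1, 66 and 44.7, -0.85). The control array was the highest in all 3. *Ciz1*, *Map2k6*, *Rbm14*, *Camta1*, *Adamts7* and *Syncrip* had ratios between -0.92 and -0.79.

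Beside *Dbp* and *Cela2a*, 5 gene probes were at 100 or more on 1 array and under 50 on the other. The kinase *Clk2*, a regulator of splicing factors, was at 42.1 on the control and 117.4 on the 5% CR array, at least 2.35-fold higher against a signal of 50, and at 81.2, 57.3 and 84.5 on the other arrays. *Cyp4b1* (42.6 and 101.6), *Dguok* (48.6 and 109.9) and *Sectm1b* (48.9 and 109.9) were higher at 5% CR by at least 2.03-, 2.20- and 2.20-fold. *Sf3b2*, a splicing factor subunit, was at 119.4 and 46.1 on the control and 5% CR arrays, at least 2.39-fold lower.

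Genes that the study followed across several tissues were on both sides of the threshold in the intestine at 5% CR. The study itself used change calls without a fold cut-off. By those calls it marked *Nampt* and *Akr1c14* as up-regulated in the intestine at 5% CR. *Nr1d2*, *Dbp*, *Sult1a1*, *Cd36* and *Ephx1*, given above, were past a log2 ratio of 0.5. *Nampt*, which makes the NAD precursor nicotinamide mononucleotide, had 81.6 on the control and 97.6, 111.6, 97.5 and 146.5 on the 5, 10, 20 and 30% CR arrays (0.26). *Glul*, glutamine synthetase, had ratios of 0.51, 0.32 and 0.31 by its 3 gene probes, and *Akr1c14*, a hydroxysteroid dehydrogenase, 0.46 and 0.86 by its 2. *S1pr1*, a receptor for sphingosine 1-phosphate, had 69.7 and 104.7 on the control and 5% CR arrays (0.59). *Cmtm6* (246.8 and 247) and *Actg1* (3926.2 and 3990.6) had ratios of 0.00 and 0.02, and *Tubb4b* (2024.6 and 1882.5) -0.10. *Cyp51* had -0.31 and -0.27 by its 2 gene probes, and *Fads1* had -0.29. The cytoskeleton genes *Tubb2a* and *Tpm4* had ratios of 0.36 and, by its 2 gene probes, -0.27 and -0.05. Gene probes 1372701_at and 1388850_at, whose annotation names *Hsp90aa1* and a pseudogene of it, had 1978.6 and 1976.3, and 1453 and 1516, on the control and 5% CR arrays, ratios of 0.00 and 0.06. *Fmo1* was under 50 on all 5 arrays.

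The whole arrays were also set side by side. Between the 5% CR and control arrays 7.53% of gene probes differed by more than 0.5 in either direction, against 5.52% between the 10 and 5% CR arrays, 9.25% between the 20 and 5% CR arrays and 2.59% between the 30 and 5% CR arrays. The last was the smallest of all 10 pairs, the other 9 lying between 5.52% and 13%, and its SD of 0.21 was below the 0.26 to 0.34 of the others. Pairs that share an array are not independent, so these shares are descriptions. The hybridisation spike-in controls, which are added to each sample before hybridisation, moved with this likeness: relative to the control array their mean log2 signal was -0.32 on the 5% CR and -0.22 on the 30% CR array, but 0.07 on the 10% CR and 0.50 on the 20% CR array. The part of array handling in the likeness was not tested. The ratio of 3′ to 5′ actin signal, which rises as RNA degrades, was 2.30 on the control, 2.20 on the 5% CR array, and 2.41, 3.18 and 2.32 on the 10, 20 and 30% CR arrays.

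**Figure D5:**
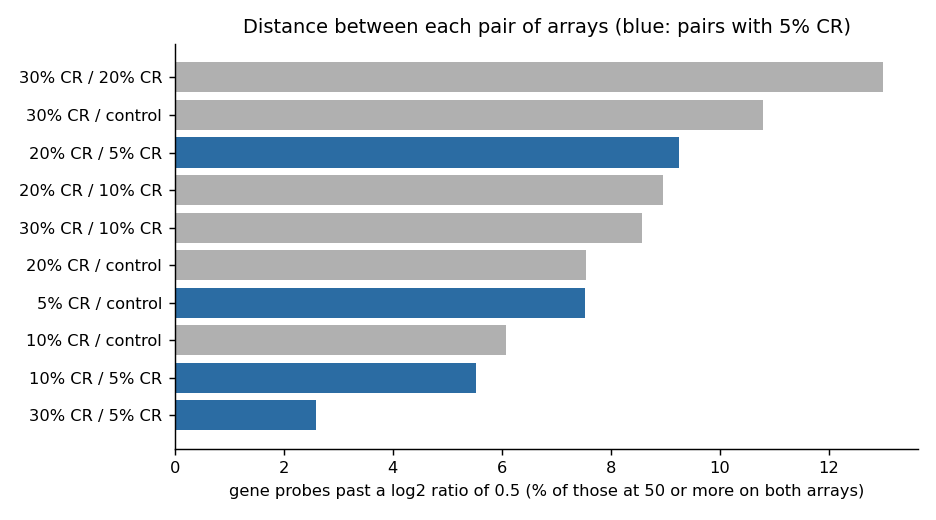
Share of gene probes past a log2 ratio of 0.5 in either direction (horizontal axis, % of those at 50 or more on both arrays) for each of the 10 pairs of arrays, with pairs that include the 5% CR array in blue. The 30 and 5% CR pair, at 2.59%, has the shortest bar, and the 30 and 20% CR pair, at 13%, the longest.

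Few genes were particular to the 5% level. Of 6951 gene probes at 50 or more on all 5 arrays, 1 (0.0144%) on the 5% CR array lay above all other arrays by 0.5 or more and 2 (0.0288%) lay below. The control array stood alone in 18 (0.259%) above and 27 (0.388%) below. The 20% CR array did so in 27 above and 52 below, more than the control. For the 10 and 30% CR arrays the counts were 11 and 14 above and 12 and 16 below. The 30% CR array lay closest to the 5% CR array, and a gene probe shared by both is not counted here. The gene on which the 5% CR array stood above was *Sv2b*, a synaptic vesicle protein. It had 113 on the control and 183.4, 96.8, 94.2 and 74.8 on the 5, 10, 20 and 30% CR arrays. The named gene below was *Fkbp5*, whose 5% CR value was under the next lowest by 0.96 on the log2 scale. The other gene probe below was 1373497_at. *Rpl39* was above all other arrays on the 5% CR array too, but was under 50 on the 10, 20 and 30% CR arrays.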

How the data were processed

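Small intestine RNA was measured on 5 Affymetrix rat arrays, each hybridised with a pool of 5 rats. The deposited values were signal intensities that the authors computed with MAS5 (per the labels' processing notes), 1 value per gene probe and array, with every array scaled alike (mean after trimming 2% at each end, 132.0 on all arrays). What target the arrays were scaled to was not given in these sources, and the authors' detection and change calls were not used here. No depth applies, and the number of arrays limits the precision.

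Array controls were left out (57 of 15923), signals were set to at least 1, and log2 ratios of 5% CR over control were taken for gene probes at 50 or more on both. Gene symbols came from the platform annotation: of 15866 gene probes 12783 had 1 symbol, 312 several and 2771 none, and 0 symbols were changed by the RefSeq gene table. With several gene probes, a gene was represented by the brightest over the 5 arrays. Error was gauged with limma 3.58.1 in R 4.3.3 (lmFit and eBayes with an intensity trend, Benjamini-Hochberg adjustment, groups control, 5% CR and the remaining 3 arrays), which was tested on simulated data. Tables were made in Python 3.11.15 with pandas 2.3.3 and figures with matplotlib 3.10.9.

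The members and the 51 gene lists were chosen with earlier results of these data known. Named genes were the 20 highest and 20 lowest ratios, gene probes past a log2 ratio of 1, one-sided signals, genes on which the 5% CR array stood alone, the 4 most distant members of a list (fewer where fewer were kept), and genes the study named. Other list members named as examples were chosen after their values were seen. Promoters were read from RefSeq (GRCr8) and searched on both strands. The alternatives were minimum signals of 25, 100 and none, median centring, quantile normalization, an added constant of 50, the mean of a gene's probes, a list threshold of 0.25, each of the 10, 20 and 30% CR arrays left out of limma, and limma without the trend.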

Additional observations from a re-analysis of the deposited data

How the results depend on the processing

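The counts depended on the minimum signal. With a minimum of 25, 551 gene probes were higher and 441 lower past a log2 ratio of 0.5, and 33 and 27 past 1. With a minimum of 100 they were 141 and 101, and 3 and 4, and the 5% CR array then stood alone above in 0 and below in 1 gene probe. With no minimum they were 2341 and 2478, and 1111 and 1208, so that 48.6% of those past 0.5 were higher in place of 58.7%. Adding 50 to the signals gave 97 and 53, and 2 and 2. Median centring and quantile normalization kept the counts within 1.5 times, with 286 of the 325 higher and 227 of the 229 lower gene probes still called after quantile normalization. No named gene past 0.5 changed its direction under these settings. Of the lists described, the clock output list changed the sign of its median at a minimum of 100, where it held only *Bhlhe40*, the sugar list turned to 0.00 there, and the goblet cell (0.02), ribosomal (-0.01), immediate early, cytochrome P450 and gut hormone (0.01) lists, with medians near 0, changed sign in at least 1 setting.

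In limma, leaving out the 10, 20 or 30% CR array gave 0 calls at an adjusted p under 0.05 and from 102 to 242 at an unadjusted p under 0.05, with 206 without the 20% CR array and 242 without the 30% CR array beside 134 with all. Without the intensity trend 1 gene probe was called (limma, adjusted p 0.0488), the amylase gene probe 1369502_a_at, which was set to 1 on all of the 10, 20 and 30% CR arrays and so had no spread there. No paired analysis was possible because each level was a single pool of different rats on a single array. The number of arrays, and not signal over background alone, limits what can be said of any gene, and the spread between rats was not measured.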
